A study of Mus musculus with 8 samples.

Results

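Solute carriers are the membrane proteins that move amino acids, sugars, metal ions, nucleotides and other small molecules across the plasma membrane and the membranes of organelles. Their transcripts were taken from the m6A peak lists of mouse embryonic fibroblasts (MEFs) by gene name, as every peak whose assigned gene is called Slc followed by a digit or carries the Slco prefix of the organic anion transporters. The 4 lists together placed peaks on 163 such genes, of 9779 genes with a peak. These genes held 591 of 38705 peaks, and peaks that shared at least 1 bp across libraries were joined to 351 regions, of 21168 regions in all. 4 of the 163 genes carry only the prefix and encode no transporter (Slc4a1ap, Slc7a6os, Slc9a3r1 and Slc9a3r2). They are counted in the totals called solute carriers below, form a class of their own, and are also described apart.

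N6-methyladenosine (m6A) is a methyl mark that a nuclear methyltransferase complex sets on adenosines of mRNA, mostly within a short consensus sequence, and that reader proteins bind to alter the stability and translation of the transcript. Cells that lose external nutrients depend on carriers in several places: plasma membrane carriers import amino acids and glucose, lysosomal carriers release amino acids from degraded protein, and mitochondrial carriers pass substrates to the matrix. Expression of amino acid carriers is known to respond to amino acid supply.

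The MEFs were wild type C57BL/6 cells from embryos at 13.5 days post coitum, used at passages 5 to 6. Control cells stayed in full, serum-containing high glucose medium, and starved cells were kept for 2 h in a nutrient-deprived medium, a balanced salt solution (Hank's) buffered with HEPES. Each group had 2 replicates, each with a library immunoprecipitated with an m6A antibody (IP) and an input library without antibody. Peaks had been called for each IP library over its own input, and the question behind the design was how the m6A pattern of mRNA differs after nutrient withdrawal.

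The value given for a peak is its fold enrichment, the ratio of IP signal to local input, so it does not give the amount of the transcript, and in bulk RNA fewer cells that express a gene and less RNA per cell cannot be told apart. The value of a region in a library is the highest fold enrichment of its peaks there. The files hold no reads or depths, so depth is unknown, and a missing peak means that none was called, not that the site was unmethylated. The labels do not say whether the replicates came from separate cultures, and the study calls them biological replicates without further detail, so each p-value measures the spread between these libraries. With 2 control against 2 starved libraries the two-sided exact permutation test cannot go below 0.333, and no comparison between the groups could pass 0.05. Of 10 fibroblast marker genes, such as Col1a2, Pdgfrb and Fn1, from 5 to 7 had a peak in a library, against 0 or 1 of 4 blood markers, 0 or 1 of 4 epithelial markers and 1 of 4 endothelial markers. The fibroblast markers Col1a1 and Vim had no peak in any library. Krt8 and Krt18 of epithelium, Cd68 of blood, and Kdr and Tek of endothelium had a peak in at least 1 library. These counts show where peaks were called, not how much of each transcript was present.

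The sequences below come from a selection of the regions compared in what follows, at the GGAC nearest the centre of each region. Such a sequence was obtained for 44 of the 58 regions named by the rules given under the processing. No GGAC was found near the centre of the region of Slc30a4 called only in starved cells. The same held for the regions of Slc38a1, Slc31a1 and Slc45a4 called only in control cells. No sequence was taken for the regions of Slc25a46 and Slc35a4. GGAC is the core of the consensus that the methyltransferase prefers, and it is set in capitals within 25 bases of the transcript strand of mm10. The first 4 lie in regions called only in the starved libraries, the next pair in regions called only in the control libraries, and the rest in regions called in all 4 libraries.
Slc36a1, 3′ UTR, chr11:55232758-55232782, plus strand: atctggcattGGACccttgggtaac
Slc22a21, 3′ UTR, chr11:53951053-53951077, minus strand: tcacagtggtGGACatgggccttcc
Slc12a7, 3′ UTR, chr13:73815497-73815521, plus strand: agcacactgaGGACtgtccaccctc
Slc5a3, 3′ UTR, chr16:92082930-92082954, plus strand: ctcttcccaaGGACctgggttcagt
Slc39a9, 3′ UTR, chr12:80681972-80681996, plus strand: tattgcctgtGGACagtgcatccct
Slc30a6, coding sequence, chr17:74423400-74423424, plus strand: gttcagccaaGGACtcgcatttcca
Slc7a5, coding sequence of exon 1, chr8:121907343-121907367, minus strand: ggggtcgcccGGACtgtcgctcgtg
Slc7a5, 3′ UTR, chr8:121882469-121882493, minus strand: gttccactgtGGACttggactgaca
Slc39a14, 3′ UTR beside the stop codon, chr14:70306582-70306606, minus strand: cccggcccgaGGACtcagcatccac
Slc35e1, 3′ UTR, chr8:72483378-72483402, minus strand: atcatggagaGGACagctgggatac
Slc41a2, coding sequence, chr10:83316398-83316422, minus strand: gcatctggcaGGACgggctgtcggg
Slc2a1, 3′ UTR, chr4:119136838-119136862, plus strand: ctatggccaaGGACacactaatacc

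The GGAC of Slc39a9 lies at the centre of its region, those of Slc7a5 in the 3′ UTR and of Slc22a21 within 3 nt of the centre, and that of Slc36a1 119 nt before it. Among all peaks of the solute carriers, GGAC occurred in the 200 bases of spliced transcript around the peak centre in 61.0% and 65.4% of peaks in the control libraries and in 66.9% and 65.9% in the starved libraries. The shares for all other peaks were 62.3%, 63.6%, 64.5% and 64.7% in the same order. Solute carrier peaks were lower in 1 library and higher in the other three, by 1.03 ± 1.62 percentage points on average (SD, n = 4), and the exact sign-flip permutation test over the libraries gave p = 0.375. The reverse complement GTCC was found in the same windows at 44.7% to 47.0% of solute carrier peaks. A match is a description of the letters and not a mapped methylated base.

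Nutrient starvation left the number of solute carrier peaks within the spread between replicates. The control libraries held 145 and 160 such peaks and the starved libraries 151 and 135. The starved mean differed from the control mean by −9.5 peaks (exact permutation p = 0.667), and the library values of the groups overlapped. All peaks numbered 10103 and 9871 in control cells, against 9757 and 8974 after starvation, and with peak numbers made equal the difference was −1.5. It was −17 and −2 without control replicate 1 or 2, and −17.5 and −1.5 without starved replicate 1 or 2. As a share of all peaks of a library, solute carriers took 1.44% and 1.62% in control and 1.55% and 1.50% in starved cells (exact permutation p = 1). Genes with a peak numbered 96 and 111 in control cells, against 104 and 97 after starvation (p = 1, exact permutation).

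Fold enrichment of the solute carrier peaks was higher in both starved libraries. The median was 10.8 and 10.9 in the control and 12.8 and 15.2 in the starved libraries, a difference of 0.36 on the log2 scale (exact permutation p = 0.333, the smallest possible). The medians of all other peaks were 12.2 and 12.3 in control cells, against 14.6 and 14.7 after starvation. Set against the other peaks of the same library, the solute carriers lay 0.18 lower on the log2 scale in both control libraries, 0.19 lower in starved replicate 1 and 0.05 higher in starved replicate 2 (p = 1, exact permutation), and without starved replicate 2 the difference of 0.11 between the groups became −0.02. The peak score, minus 10 times the log10 of the p-value, also stood higher in the starved libraries. It was 3100 or more at 11.7% and 6.25% of the solute carrier peaks in control and at 23.2% and 33.3% in starved cells. Of all other peaks, 17.1% and 13.3% had such a score in control and 28.6% and 27.7% in starved cells. The part of the score in the higher fold enrichment was not tested.

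Most solute carrier regions were called in a single library. Of the 351 regions, 222 (63.2%) had a peak in 1 library, 65 in 2, 33 in 3 and 31 (8.83%) in all 4, against 56.2% in 1 library and 10.7% in all 4 for the regions of all genes. Within a group, 39.3% and 37.5% of the solute carrier peaks of the control libraries overlapped a peak of the other replicate, and 39.7% and 45.9% in the starved libraries. These shares were below those of the other peaks of the same libraries, which were 47.5%, 48.8%, 45.03% and 49.1%, with no test run on the difference. At the level of genes, 46 of the 163 (28.2%) had a peak in every library, against 29.2% of all genes with a peak, and 43 had one in 1 library. Slc5a3, the sodium-coupled importer of myo-inositol, had the most regions with 9, and 95 of the 163 genes had at least 2. The false discovery rate that the authors give for a peak was under 20% for 42.1% and 46.9% of the solute carrier peaks in control and for 58.9% and 64.4% in starved libraries, against 45.5%, 53.2%, 63.1% and 59.1% of all other peaks in the same order. The lowest rate of any solute carrier peak was 13.3% and 9.35% in the control and 10.1% and 7.52% in the starved libraries. Weak peaks named below had higher rates, such as 61.5% (Slc30a4 3′ UTR, starved replicate 1) and 72.2% (Slc38a2 3′ UTR, control replicate 1).

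**Figure D1:**
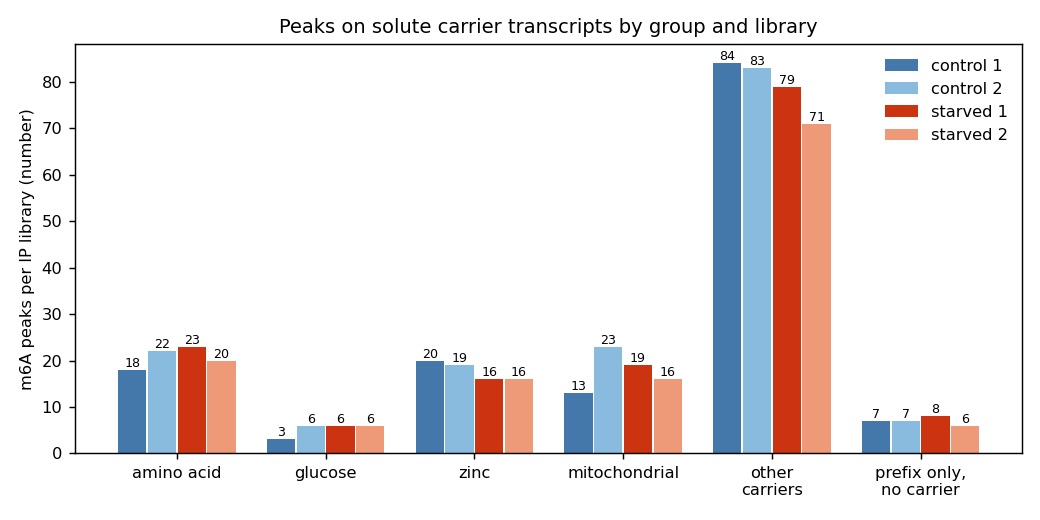
Number of m6A peaks on solute carrier transcripts in each IP library (bars; y axis, number of peaks), by the class of molecule carried. The control and starved bars overlap among the amino acid, glucose, mitochondrial and prefix-only genes. Both starved bars lie below both control bars for zinc (16 and 16 against 20 and 19) and other carriers (79 and 71 against 84 and 83), as the totals of all peaks do.

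Amino acid carriers with a peak numbered 22 of 54 mouse genes of that class, with 50 regions. They had 18 and 22 peaks in control cells, and 23 and 20 after starvation (difference 1.5, exact permutation p = 0.667). The median fold enrichment of their peaks was 12.5 and 10.6 in control and 12.8 and 12.5 in starved cells (0.15 on the log2 scale, exact permutation p = 0.333), and the difference was 0.28 without control replicate 1 and 0.02 without control replicate 2. In this class 1 region was called only in both starved libraries and 1 only in both control libraries. Each was 2% of the 50 regions, against 3.2% and 4.15% of the regions of all genes. Among the 6 regions in all 4 libraries 1 was higher and 1 lower in both starved libraries. Of all such regions, 22.9% were higher and 18% lower.

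Slc7a5, the light chain of the leucine and large neutral amino acid transporter LAT1, held the higher and the lower region of the class at once. Its first region, in the coding sequence of exon 1 (chr8:121907066-121907692), had fold enrichments of 4.25 and 3.48 in control cells and of 9.96 and 4.42 after starvation. The second, in the 3′ UTR 560 nt after the stop codon (chr8:121881146-121883095), had 46.1 and 47.0 in control cells and 36.1 and 12.5 after starvation. The exon 1 region was thus weakly enriched in every library, with starved replicate 2 just above control replicate 1, and the 3′ UTR region was lower in both starved libraries, most so in replicate 2. The differences of the means were 0.79 and −1.13 on the log2 scale, each with p = 0.333 by exact permutation. Slc3a2, the heavy chain that LAT1 needs at the membrane, had a stop codon peak of 4.66 in control replicate 2 and a coding sequence peak of 8.12 in starved replicate 1, and none elsewhere.

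Slc36a1, which encodes a proton-coupled amino acid transporter of the lysosomal membrane, had the only amino acid carrier region called in both starved and neither control library. It lies 250 nt into the 3′ UTR in the last exon (chr11:55232463-55233287), with fold enrichments of 14.2 and 18.2. The nearest control peak began 163 bp away in the same 3′ UTR, at 6.47 in control replicate 1. Further along this 3′ UTR a region was called at 12.7 in control replicate 2 and 7.58 in starved replicate 1, and another at 46.1 in starved replicate 2 alone. All 4 regions of Slc36a1 were thus in its 3′ UTR, and each library had at least 1 peak there.

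Slc38a1, a sodium-coupled glutamine importer, had 7 regions, the most of the amino acid carriers. The one in its second exon near the start of the coding sequence (chr15:96623956-96624169) was strongly enriched in every library, at 50.1 and 106 in control and 56.0 and 105 in starved cells. The replicates of each group differed far more than the groups did (0.07 on the log2 scale). A region in the 3′ UTR of a coding transcript of 3 exons, not of the transcript of 16 exons, was called only in control cells. It had 361 in replicate 1 and 13.5 in replicate 2. The nearest starved peak lay 1127 bp away, in another region of this 3′ UTR. That other region had 31.0 and 185 in the starved libraries and 12.25 in control replicate 1. The value of 361 was the highest of any solute carrier peak in the 4 lists, and it was not shared by the other replicate. The related Slc38a2 had a 3′ UTR peak of 3.47 in control replicate 1 and a coding sequence peak of 4.11 in control replicate 2.

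Peaks on other carriers with a well-known part in amino acid supply differed in number. Slc1a5, the glutamine importer ASCT2, had a 5′ UTR peak of 3.54 in control replicate 2 and a stop codon peak of 4.37 in starved replicate 1. Slc7a11, the cystine and glutamate exchanger, had a 3′ UTR peak of 9.77 in starved replicate 2 only. No peak was called on Slc38a9, the lysosomal arginine sensor, in any library. Slc7a1, an importer of cationic amino acids, had a 3′ UTR region in all 4 libraries, at 9.96 and 16.7 in control and 12.8 and 3.78 in starved cells, and its groups overlapped. This gene was chosen for the text after its values were seen.

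Glucose carriers were taken by name, as the Slc2 family, Slc37a4, Slc50a1 and the glucose members of Slc5, so not every member need carry glucose. They had peaks on 7 of 20 genes, with 3 and 6 peaks in the control libraries and 6 in each starved library (exact permutation p = 1). The median fold enrichment of these few peaks was 20.4 and 12.8 in control and 5.60 and 33.6 in starved cells, so the starved replicates were the lowest and the highest of the 4 (−0.27 on the log2 scale, exact permutation p = 1). Slc2a1, which encodes the basal glucose importer GLUT1, had the only region of the class in all 4 libraries. This region, 434 nt into the 3′ UTR (chr4:119136246-119137330), had fold enrichments of 45.04 and 36.2 in control cells and of 19.7 and 36.9 after starvation. Starved replicate 1 was the lowest of the 4, and starved replicate 2 lay between the control libraries (difference −0.58 on the log2 scale). A pair of weaker coding sequence regions of Slc2a1 reached 6.03, 3.42 and 10.2 in 3 libraries and 11.8 and 3.87 in 2 libraries, with no peak in control replicate 1. Slc2a3, the GLUT3 importer, had a single coding sequence peak, at 40.0 in starved replicate 2. None of the 11 glucose carrier regions was called only in one group in both of its replicates. Of the regions of all genes, 3.2% were called so in starved and 4.15% in control cells.

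Zinc carriers come in 2 families with opposite directions, the Slc30 exporters that lower cytosolic zinc and the Slc39 importers that raise it. Peaks were called on 15 of 24 genes, and 8 of these had a peak in every library. The zinc carriers had 20 and 19 peaks in the control libraries and 16 in each starved library, a difference of −3.5 peaks with groups that did not overlap (exact permutation p = 0.333, the smallest possible). The groups overlapped once peak numbers were made equal across libraries (−2 peaks, exact permutation p = 0.667). As a share of all peaks of a library, zinc carriers took 0.198% and 0.192% in control cells and 0.164% and 0.178% after starvation. Their median fold enrichment was 15.5 and 9.38 in control and 10.9 and 9.84 in starved cells (exact permutation p = 1), and without control replicate 1 the difference turned from −0.22 to 0.14 on the log2 scale.

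Slc39a14, an importer of zinc, iron and manganese, had the most regions with Slc39a6, 6 each. Its region at the stop codon (chr14:70305952-70306812) was higher in both starved libraries, at 23.6 and 46.1, than in the control libraries, at 19.1 and 9.69. That is a difference of 1.28 on the log2 scale with p = 0.333 by exact permutation, and the gap between the groups was small beside the spread within them. Its other 5 regions were each called in a single library, at 31.0 and 23.2 in control replicate 1, 22.9 in control replicate 2, 14.2 in starved replicate 1 and 4.39 in starved replicate 2. Slc30a1, the zinc exporter of the plasma membrane, had a coding sequence region in all 4 libraries, at 29.8 and 8.05 in control and 8.95 and 21.4 in starved cells, so that its groups overlapped fully. Of the 5 zinc regions in all 4 libraries, 1 was higher and 1 lower in both starved libraries. Of all such regions, 22.9% were higher and 18% lower. The lower zinc region, in the 3′ UTR of Slc30a9, had 11.91 and 12.06 in control and 10.25 and 10.33 in starved cells. The difference of the mean log2 fold enrichment was above 0 in 1 of the 5 regions and below 0 in 4.

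A further 3 zinc carriers had a region in one group only. Of the 42 zinc regions, 1 (2.38%) was called only in both starved libraries and 2 (4.76%) only in both control libraries. Of the regions of all genes, 3.2% and 4.15% were. Slc30a4, an exporter into vesicles, was called 150 nt into its 3′ UTR at 3.11 and 7.25 in the starved libraries. Slc30a6 and Slc39a9, both of the Golgi, were called in the control libraries only: Slc30a6 in its last exon 110 nt before the stop codon, at 21.5 and 10.2, and Slc39a9 in its 3′ UTR, at 18.9 and 5.92. The region of Slc30a6 was the only one of that gene, and the nearest starved peak, on another gene, was 75758 bp away. The nearest starved peak of Slc39a9 was 774 bp away in the same 3′ UTR, at 6.32.

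Mitochondrial carriers, mainly the Slc25 family of the inner membrane, had peaks on 26 of 47 genes, and 15 of the 26 had a peak in 1 library only. They had 13 and 23 peaks in control cells, and 19 and 16 after starvation (exact permutation p = 1), so the control replicates differed more than the groups. Their median fold enrichment was 5.96 and 7.25 in control and 7.30 and 9.95 in starved cells, in both control libraries the lowest of the 4 classes. The difference was 0.37 on the log2 scale (exact permutation p = 0.333), 0.59 without starved replicate 1, 0.15 without starved replicate 2 and 0.23 without control replicate 1. Only 3 of their 46 regions were called in all 4 libraries.

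Slc25a44, which carries branched-chain amino acids into the matrix, had a 3′ UTR region (chr3:88411217-88412882) at 14.7 and 9.48 in control cells and at 31.4 and 33.7 after starvation. Both starved values were above the higher control value and close to each other (1.46 on the log2 scale, exact permutation p = 0.333). Slc25a36, a pyrimidine nucleotide carrier, had a region at its stop codon (chr9:97078729-97079239) at 4.94 and 15.6 in control and 19.4 and 23.1 in starved cells (1.27 on the log2 scale), and a region in coding exon 6, 954 bp away, at 12.2 and 21.3 in the control libraries only. Both sequences of Slc25a36 occur at 2 places in the mm10 assembly, so reads may have been shared between the copies. Slc25a46, an outer membrane protein that shapes mitochondria, was called in its 3′ UTR at 9.01 and 31.9 in control cells only.

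For the iron importer Slc25a37 (mitoferrin 1) the peak lists gave a region at 27.5 and 8.84 in control cells and at 6.92 and 7.51 after starvation (−1.11 on the log2 scale). That region (chr14:69464105-69465011) lies outside the gene as RefSeq places it (chr14:69241848-69285544) and has 2 copies in the assembly, so its assignment is uncertain. The 3 regions inside the gene were each called in 1 library, at 12.6, 5.83 and 7.25. Slc25a5, an ADP and ATP exchanger of high abundance in most cells, had 1 weak peak, at 2.25 in control replicate 2, at a sequence with 3 copies in the assembly. No peak was called on the citrate carrier Slc25a1.

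**Figure D2:**
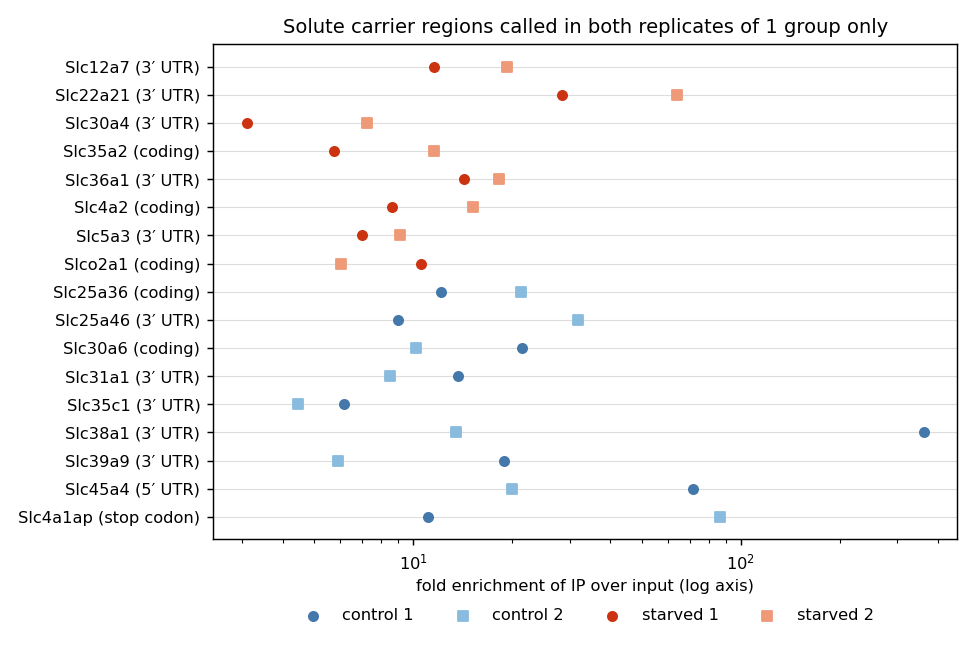
Fold enrichment of IP over input (log axis) of each solute carrier region called in both replicates of 1 group and nowhere in the other group; each marker is 1 library. The replicates often differed widely, as for Slc38a1 at 361 and 13.5 in the control libraries.

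Across all classes, 8 of the 351 regions (2.28%) were called in both starved and neither control library, where 3.2% of the regions of all genes were. The opposite pattern, both control and neither starved library, was found for 9 regions (2.56%), with 4.15% of all regions showing it. Both shares were below those of the regions of all genes, the second by more, and no difference was tested. Without control replicate 1 or 2 the first count became 20 (6.60%, against 7.36% of all regions) or 15 (5.15% against 6.85%), because fewer libraries then had to hold or lack a peak. Without starved replicate 1 or 2 it became 50 (17.2% against 18.5%) or 70 (22.3% against 19.9%). The second count became 77 (25.4% against 22.4%) and 64 (22.0% against 22.3%) without control replicate 1 or 2, and 14 (4.81% against 9.02%) and 17 (5.41% against 7.97%) without starved replicate 1 or 2.

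The carriers of other molecules had peaks on 89 of 240 genes, with 84 and 83 peaks in control and 79 and 71 in starved cells and medians of 9.57 and 11.4 against 15.5 and 20.04, and they held 6 of the 8 regions called only in starved cells. These 6 were 3.19% of the 188 regions of the class, close to the 3.2% among the regions of all genes, and the class made up 53.6% of the solute carrier regions. Slc22a21, a carnitine transporter, had the highest values, at 28.4 and 63.9 in its 3′ UTR (chr11:53950625-53951355), and a control peak of 37.1 lay 323 bp away in the same 3′ UTR. Slc12a7, a potassium and chloride cotransporter, had a 3′ UTR region at 11.6 and 19.3 (chr13:73814909-73816197), the only region of that gene. Slc5a3 had one of its 9 regions, 3639 nt into a long 3′ UTR, at 6.99 and 9.11. The coding sequence regions were those of Slc4a2, a chloride and bicarbonate exchanger, at 8.62 and 15.3 in exon 13, of Slc35a2, the UDP-galactose transporter of the Golgi, at 5.74 and 11.6 in exon 4, and of Slco2a1, a prostaglandin transporter, at 10.5 and 6.03 in exon 4. For Slc4a2, Slc12a7 and Slco2a1 the nearest control peak was that of another gene, 8745, 3245 and 159932 bp away.

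Of the regions called only in control cells, 3 belonged to carriers of other molecules. These were 1.60% of the 188 regions of the class, against 4.15% of the regions of all genes, with no test of the difference. Slc45a4 was called in its 5′ UTR at 71.2 and 20.05 (chr15:73605466-73605984). Slc31a1, the copper importer, was called far into its 3′ UTR at 13.7 and 8.49 (chr4:62391184-62391567), and the nearest starved peak belonged to Prpf4. Slc35c1, the GDP-fucose transporter, was called in its 3′ UTR at 6.15 and 4.46, while a starved peak of 11.5 lay 576 bp away on the same transcript. The last of the 9, at 11.1 and 86.6, lay at a stop codon of Slc4a1ap, whose protein is no transporter.

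**Figure D3:**
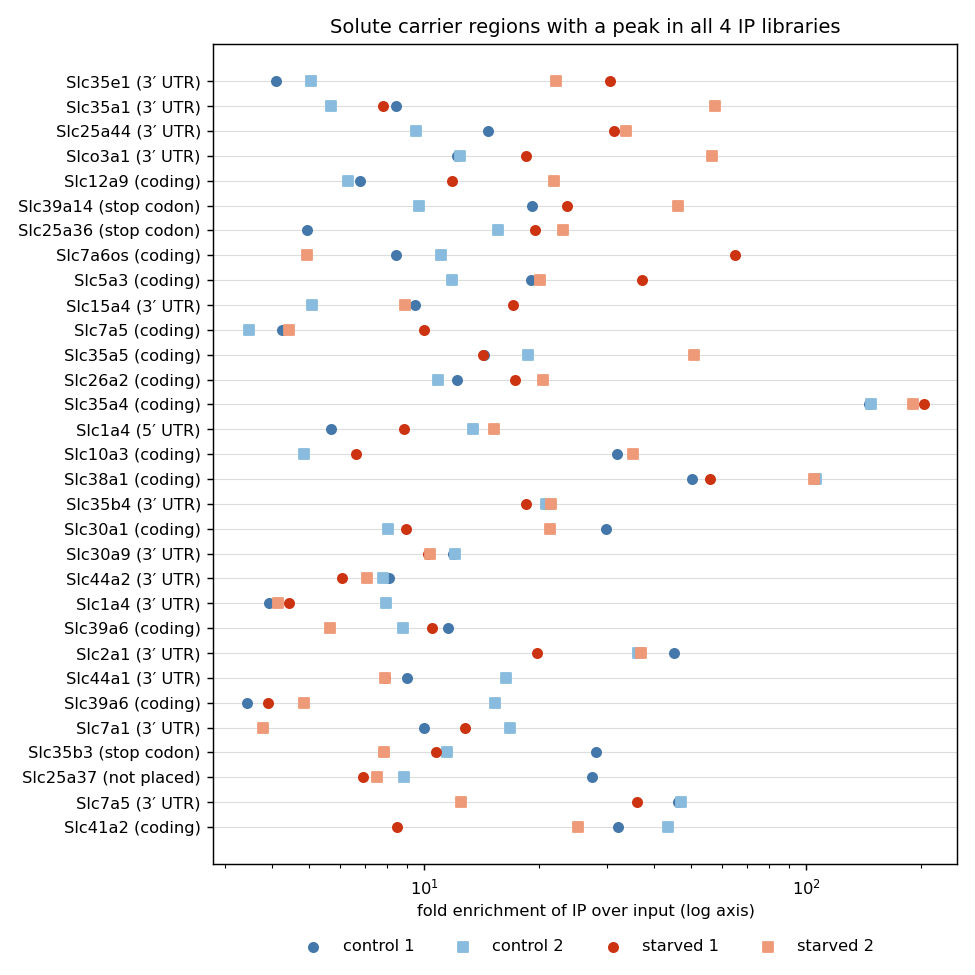
Fold enrichment of IP over input (log axis) of the 31 solute carrier regions with a peak in all 4 IP libraries, ordered by the starved minus control difference of the mean log2 value; each marker is 1 library. Both starved markers lie right of both control markers in 10 rows and left of them in 7.

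Among the 31 regions called in all 4 libraries, 10 (32.3%) had both starved values above both control values, where 22.9% of all such regions did, and 7 (22.6%) had both below, where 18% did. The remaining 14 had overlapping groups. The starved minus control difference of the mean log2 fold enrichment was above 0 in 17 regions and below 0 in 14, with a median of 0.29 (exact permutation p = 0.333). It was 0.10 over the 2226 such regions of other genes, which served as background with no test of the difference. Without starved replicate 2 the median of the solute carriers was 0.02. With peak numbers made equal across libraries it was 0.07 (exact permutation p = 0.667). It was 0.18 under the stricter overlap rule for joining peaks, and 0.41 with peaks of at least 4-fold only. With equal peak numbers, 7 of 25 solute carrier regions had both starved values above both control values, and 7 had both below. These were 28% each, against 21.6% and 19.2% of all such regions.

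The largest difference was in the 3′ UTR of Slc35e1 (chr8:72482351-72483993), at 4.10 and 5.06 in control cells and at 30.6 and 22.1 after starvation. Its groups were far apart relative to their spread, with means of 4.58 ± 0.679 and 26.3 ± 6.05 (SD, n = 2 each), a difference of 2.51 on the log2 scale. Among regions with ordered groups, Slco3a1, an organic anion transporter, came after Slc25a44, at 12.2 and 12.4 in control cells and 18.5 and 56.7 after starvation (1.40). A 3′ UTR region of Slc35a1 had a larger difference (1.61), but its groups overlapped. It had 8.45 and 5.68 in control and 7.81 and 57.5 in starved cells. In Slc12a9, a member of the cation and chloride cotransporter family, a coding sequence region had 6.77 and 6.33 in control and 11.8 and 21.8 in starved cells (1.29). The most enriched region of all was that of Slc35a4, at 146 and 147 in control and 203 and 190 in starved cells, where the replicates lay close together and the difference was 0.42. Its sequence has 2 copies in the assembly.

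In the other direction, Slc41a2, a magnesium transporter, had a coding sequence region (chr10:83316206-83316789) at 32.2 and 43.4 in control cells and at 8.50 and 25.2 after starvation (−1.35 on the log2 scale). Slc35b3, which carries the sulfate donor PAPS into the Golgi, had a stop codon region at 28.2 and 11.4 in control and 10.7 and 7.86 in starved cells (−0.97). Its control replicate 2 lay just above starved replicate 1. The choline transporter Slc44a1 had a 3′ UTR region at 8.98 and 16.4 in control and 7.88 and 7.89 in starved cells (−0.62). Each of these regions had p = 0.333 by exact permutation, as had every region whose groups did not overlap. That value follows from the ordering itself and adds nothing to it.

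**Figure D4:**
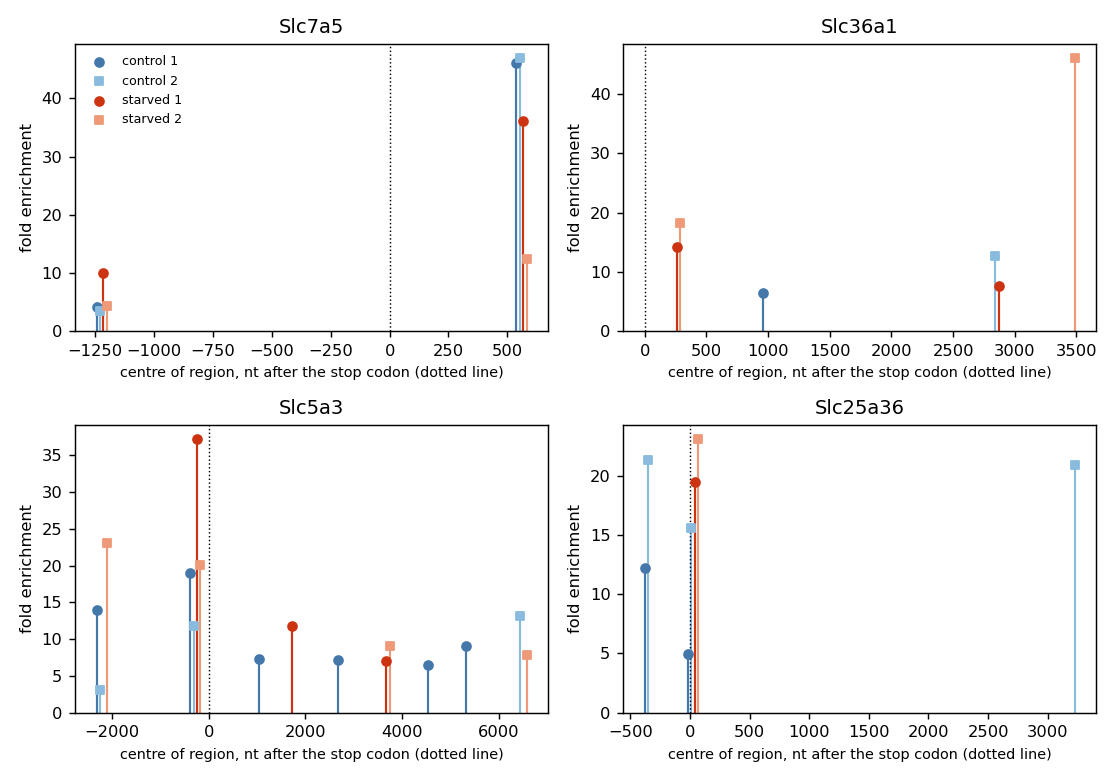
Regions along the transcripts of Slc7a5, Slc36a1, Slc5a3 and Slc25a36 (x axis, nt from the stop codon, with the coding sequence left of the dotted line; y axis, fold enrichment of IP over input; each stem is 1 library, set side by side where libraries share a region). Slc7a5 has its strong region about 560 nt after the stop codon and Slc36a1 has all of its regions in the 3′ UTR.

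Regions of the same transcript were not always ordered alike. In Slc7a5 the exon 1 and 3′ UTR regions were ordered in opposite directions. In Slc25a36 the stop codon region was higher in both starved libraries and the exon 6 region was called only in control cells. In Slc5a3 a region at the end of the coding sequence (chr16:92077873-92079929) was higher in the starved libraries, at 37.2 and 20.04 against 19.0 and 11.8 (0.87 on the log2 scale), and 1 of its 7 3′ UTR regions was called only in starved cells. The other 6 3′ UTR regions were called in 1 library, or in 1 library of each group, at 6.46 to 13.2. Slc5a3 was placed in the map for its number of regions, after its values were seen.

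**Figure D5:**
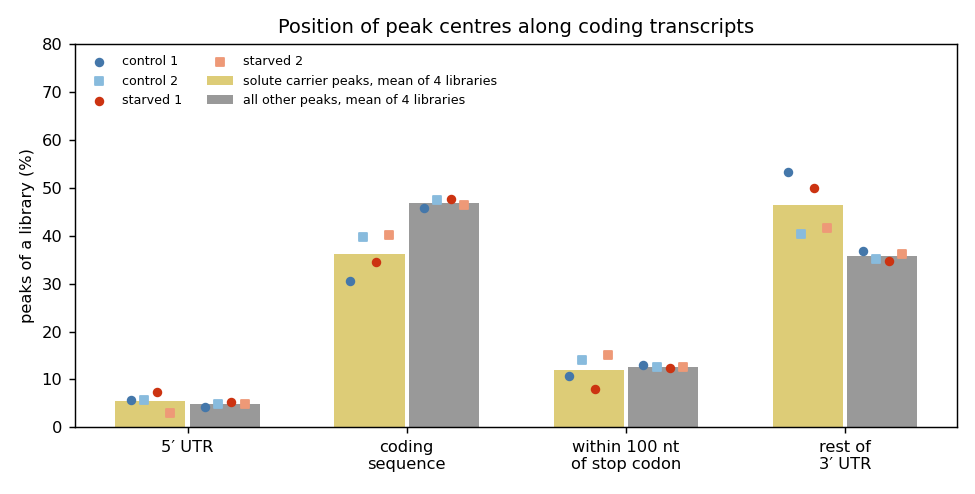
Share of placed peak centres (y axis, percent of the peaks of a library) in 4 parts of coding transcripts, for solute carrier peaks and all other peaks; bars give the mean of 4 libraries and markers the single libraries. In the 3′ UTR all 4 solute carrier markers (40.4% to 53.2%) lie above all markers of the other peaks (34.7% to 36.9%).

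Along the transcript, a larger share of solute carrier peaks than of other peaks lay in the 3′ UTR beyond 100 nt after the stop codon in all 4 libraries. The share was 53.2% and 40.4% in control cells and 50.0% and 41.7% after starvation, against 36.9%, 35.1%, 34.7% and 36.2% of the other peaks in the same order. The difference was 10.6 ± 6.06 percentage points (SD, n = 4), higher in 4 of 4 libraries, with p = 0.125 by the exact sign-flip permutation test, the smallest it can give over 4 libraries. In the coding sequence the solute carriers were correspondingly lower, by 10.6 points in the other direction, at 30.5%, 39.7%, 34.5% and 40.2% against 45.7%, 47.4%, 47.8% and 46.5% (p = 0.125, exact). The share within 100 nt of the stop codon was 10.6%, 14.1%, 8.11% and 15.2%, and it differed from that of the other peaks by −0.65 points (p = 0.75, exact). Both the 3′ UTR and coding sequence comparisons were chosen after the values were seen. Many of the same genes recur in the libraries, so these sign-flip tests measure the spread between libraries and not between genes.

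The transcripts of the solute carriers also had longer 3′ UTRs. Over the 163 genes, those with the prefix only included, the 3′ UTR took 45.5% of the transcript on average, with a median of 1606 nt. Over 9161 other genes with a peak these values were 41.2% and 1242 nt. The part of this length in the position of the peaks was not tested. Between the groups the position differed by less than the spread between replicates, by −0.95 points for the 3′ UTR share and −0.74 points for the stop codon share (p = 1 for each, exact permutation).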

How the data were processed

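MeRIP-seq was done on 4 IP and 4 input libraries of control and starved MEFs. Per the labels and the study's methods, Cutadapt trimming and HISAT2 2.0.4 alignment to mm10 were followed by MACS2 peak calling for each IP library over its input, and peaks on mRNA exons were kept. The column names are those of an older MACS series, so the caller version is uncertain. Fold enrichment was deposited as the authors' ratio of IP signal over the local signal of the matching input. The score as deposited is minus 10 times log10 of the peak p-value, from 50.01 upwards. Many peaks hold the value 3100, and a few lie above it, such as 3222 for Slc35b4 in starved replicate 2. The authors give the false discovery rate as a percent. A deposited table of the authors' own group comparison (fold changes, p-values and their −log10) was not used. The number of unmapped per-sample columns was 0.

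Depth is unknown because the files give no reads: a deeper library yields more peaks and higher scores at the same enrichment.

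Samples were grouped by title. Peaks overlapping by at least 1 bp across libraries formed regions. Peak starts were raised by 1 to count from 1. Centres were placed on GENCODE M21 coding transcripts, and names and sequence came from RefSeq GRCm38.p6 (all 163 symbols found). GGAC was searched as spelled, on the transcript strand. In each library 3 or 4 solute carrier peaks could not be placed. Copies were found with blastn 2.17.0 (identity of at least 95% over 90% of the length). Library values of the groups were compared with the exact two-sided permutation test (6 assignments), and solute carrier against other peaks by exact sign flips over 4 libraries, with Python 3.11.15, numpy 2.4.6, pandas 2.3.3 and matplotlib 3.10.9; samtools 1.23.1 read the sequences. Steps were tested on simulated data (28 of 28 quantities recovered). Alternatives were a minimum of 4-fold, equal peak numbers (8974), an overlap of 0.5 of the shorter peak, single libraries left out and a replicate block.

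The members, the classes of carriers and the gene lists were chosen with earlier results of these data known. Named in the text were all regions of 1 group only, the 5 largest differences in each direction among regions in all 4 libraries with ordered groups, the 2 most enriched regions of each class, and 14 well-known carriers; any other gene was chosen after its values were seen.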

Additional observations from a re-analysis of the deposited data

How the results depend on the processing

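Of 158 alternative values over 20 results, 119 kept their direction (and, for counts of regions, their approximate size), and by the design no alternative could bring a group comparison past 0.05. The replicate block changes only the p-value, so its values, counted among the 119, kept their direction by construction. With peaks of at least 4-fold only, the starved minus control difference turned to 0.0132 percentage points for the solute carrier share, 2.5 for the number of genes, −0.064 on the log2 scale for the median of the amino acid carriers and 0.67 for that of the glucose carriers, and it became 0 for the number of glucose carrier peaks. With peak numbers made equal across libraries it turned to 3.5 genes, to −0.065 for the amino acid and 0.62 for the glucose carriers, and to 1.5 peaks for the mitochondrial carriers. The cause was not tested. Leaving out 1 library at a time gave differences from −0.0949 to 0.0908 percentage points for the share, −10.5 to 4.5 genes, −0.0153 to 0.23 for the median relative to other peaks, −0.5 to 3.5 peaks of amino acid, 0 to 3 of glucose and −5.5 to 4.5 of mitochondrial carriers, −1.60 to 1.05 for the median of the glucose and −0.57 to 0.14 of the zinc carriers, and −4.26 to 2.78 percentage points near the stop codon. The counts of regions, which need fewer libraries once 1 is left out, ranged from 15 to 70 for starved only, 14 to 77 for control only, 15 to 19 for higher and 11 to 13 for lower. Same-numbered replicates did not deviate together (r = −0.02 over 2257 regions), so the numbers were not taken as pairs. With the replicate block (sign flips over 2 pairs, smallest p 0.5) the median fold enrichment kept its difference of 0.36 with an exact p = 0.5, and the zinc peaks theirs of −3.5 with an exact p = 0.5. No depth is given, so differences in peak number cannot be set against sequencing.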

Other observations

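Some of the strongest solute carrier peaks were called in 1 library of a group and were chosen here after their values were seen. Slc5a7, the high-affinity choline importer, had a 3′ UTR region at 36.3 in control replicate 1 and 296 in starved replicate 2. Slc16a6, of the monocarboxylate transporter family, had peaks of 182 in the coding sequence and 110 at the stop codon in starved replicate 2, and of 22.7 in control replicate 2. Slc1a3, a glutamate importer, reached 141 in its 5′ UTR in control replicate 2, where no other library had a peak.

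Regions called in both starved libraries and 1 control library included Slc16a13, of the monocarboxylate family, with 34.4 in control replicate 1 and 232 and 130 in the starved libraries, and the organic anion transporter Slco4a1, with 12.8 in control replicate 2 and 115 and 131 in the starved libraries. Both regions lie in coding sequence. Slc38a10 had 2.67 in control replicate 2 against 14.6 and 14.8 in the starved libraries. In the opposite order, the lactate and pyruvate carrier Slc16a1 had 14.3 in control replicate 1 against 2.80 and 4.86, and Slc35c2 19.9 in control replicate 1 against 4.56 and 6.42. No test was run on these regions.

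The 4 genes that carry the prefix but encode no transporter had 7 and 7 peaks in control and 8 and 6 in starved libraries. Slc4a1ap held 7 of their 14 regions. In Slc7a6os a coding sequence region in all 4 libraries had 8.44 and 11.1 in control and 65.1 and 4.92 in starved cells, so that the starved replicates were the highest and the lowest of the 4.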
